A study of Mus musculus with 6 samples.

Results

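Pou5f1, Sox2 and 8 further genes of the pluripotency network, Nanog, Fbxo15, Lin28a, Zfp42, Tdgf1, Utf1, Dppa5a and Fgf4, were followed through RNA-seq of mouse cells at day 3 of reprogramming. The 10 genes were chosen by symbol as known genes of the pluripotent state, 9 of them had a row among the 16982 genes of the count table used here, and Dppa5a, which had none, was counted as 0 by the rule that fixed the set. Mouse embryonic fibroblasts (MEF) of C57BL/6 background, either wild type (WT, Rnf20+/+, 3 libraries) or Rnf20 knockout (KO, Rnf20-/-, 3 libraries), were infected with pMXs retroviruses for OCT4, SOX2, KLF4 and C-MYC, the OSKM mixture that both genotypes therefore share. The KO cells came from embryos with loxP sites around exons of Rnf20 and a ubiquitous Cre that tamoxifen switches on, and the knockout was induced in culture with 4-OH tamoxifen. The labels call all 6 cultures untreated, and whether the WT cells received the drug is not given in the sources used here. After infection the cells were moved onto a layer of growth-arrested MEF feeders, and nothing in the sources says whether feeder RNA was in the samples. Since the labels do not say which libraries came from separate embryos or cultures, a p-value here measures only the spread between these libraries, and in such bulk RNA fewer cells of a type and less RNA per cell cannot be told apart.

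OCT4, the product of Pou5f1, is a POU-domain factor, and SOX2 is an HMG-box factor. They bind side by side on a composite DNA element in the enhancers and promoters of many pluripotency genes, their own genes and Nanog included, and so hold the network on in embryonic stem cells. During OSKM reprogramming the viral copies are transcribed from the first days, whereas the endogenous network comes on late and in few cells. A count on Pou5f1 or Sox2 in this table can come from the viral transcript, the endogenous one or both, because a read over the coding sequence fits either if the cDNA is of mouse origin, and the species of the cDNA is not given in the sources used here. The other 8 genes were not in the retroviral mixture, so their counts report the endogenous genes.

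The OCT4 and SOX2 motifs were looked for in the 250 bases before and 50 bases after RefSeq starts (GRCm38.p6) of 8 of the 10 genes. Fbxo15 and Dppa5a were not searched, so nothing is said here on motifs at their starts. The searched letters were the octamer ATGCAAAT, its shorter form ATGCNAA (which lies inside every octamer), the SOX core CATTGT, and the composite of CATTGT, 1 base and ATGCNAA, all on both strands. Of 32851 promoter windows, 1.74% held the octamer, 10.5% ATGCNAA, 12.6% CATTGT and 0.00609% the composite. The composite occurred in 2 windows, both belonging to Nanog. The 250 bases before a start are shown for Nanog, Sox2, Zfp42 and Pou5f1, to set the gene with the paired motif beside 1 with the short OCT form, 1 with the octamer and the factor gene whose first RefSeq start has no match. They are written 5′ to 3′ on the strand of the gene, with matches in capitals.
Nanog (chr6:122707239-122707488, plus strand): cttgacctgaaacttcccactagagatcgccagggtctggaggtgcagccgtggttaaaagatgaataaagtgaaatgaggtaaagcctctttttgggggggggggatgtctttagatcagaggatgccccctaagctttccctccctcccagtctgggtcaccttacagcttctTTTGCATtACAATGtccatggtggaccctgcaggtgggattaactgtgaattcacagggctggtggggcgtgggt
Sox2 (chr3:34649745-34649994, plus strand): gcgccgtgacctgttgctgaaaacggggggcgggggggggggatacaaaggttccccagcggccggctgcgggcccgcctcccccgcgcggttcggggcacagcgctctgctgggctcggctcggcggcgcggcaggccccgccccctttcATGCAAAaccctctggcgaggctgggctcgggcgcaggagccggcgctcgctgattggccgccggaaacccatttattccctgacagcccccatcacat
Zfp42 (chr8:43307010-43307259, minus strand): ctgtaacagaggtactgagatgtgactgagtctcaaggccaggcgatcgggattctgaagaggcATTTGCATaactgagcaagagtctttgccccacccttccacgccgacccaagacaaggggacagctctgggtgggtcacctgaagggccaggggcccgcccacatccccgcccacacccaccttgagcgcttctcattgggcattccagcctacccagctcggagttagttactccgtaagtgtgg
Pou5f1 (chr17:35505782-35506031, plus strand): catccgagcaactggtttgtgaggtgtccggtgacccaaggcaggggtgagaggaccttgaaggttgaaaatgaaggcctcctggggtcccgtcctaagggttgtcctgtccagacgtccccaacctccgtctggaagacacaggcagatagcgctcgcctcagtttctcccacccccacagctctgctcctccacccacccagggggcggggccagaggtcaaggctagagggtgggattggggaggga
The composite of Nanog began 75 bases before this start, with the OCT motif first and the SOX core after it on the strand shown. The match of Sox2 began 99 bases and the octamer of Zfp42 186 bases before the start. Lin28a held a SOX core beginning 96 bases before its start, a second RefSeq start of Pou5f1 held a SOX core 158 bases upstream, and Utf1, Tdgf1 and Fgf4 held no match. A match of letters is a description of the window and not a measured binding site, and distal enhancers lie outside these windows.

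The libraries held 20545442 to 21746898 counts, and 3 counts in a library, taken as the floor of detection, equal 0.142 to 0.143 CPM (counts relative to the library size after scaling with edgeR's TMM factors). Rnf20, the E3 ligase that ubiquitinates histone H2B, had 2253, 2250 and 2226 counts in WT and 392, 390 and 344 in KO, a log2 fold change of -2.57 (SE 0.0812, adjusted p = 0.000163, the quasi-likelihood test of edgeR, with p-values adjusted after Benjamini and Hochberg over all genes). KO replicate 3 stood apart from the other KO libraries: the chi-square per gene of its counts against theirs was 92.4 and 101, whereas every other pair within a genotype gave 6.04 to 8.92. The Y-linked gene Ddx3y was at 0 counts in KO replicates 1 and 3 and at 1990 to 2686 in the other 4 libraries, so the KO libraries did not all come from 1 embryo, and Y-linked transcripts were present in all 3 WT but 1 of 3 KO libraries. The part of this difference in the results was not tested. Calls of the genes and lists below that change without KO replicate 3 are given both ways. Without it, 33.2% of 13529 tested genes were called by edgeR's quasi-likelihood test, against 9.88% of 13386 with all 6 libraries. Each count of called genes in the lists below is to be read beside these shares.

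Pou5f1 (ENSMUSG00000024406, GRCm38 chromosome 17, 35506018 to 35510772, plus strand) was among the most abundant transcripts of both genotypes. It had 10635, 12041 and 12920 counts in WT replicates 1 to 3, or 506, 572 and 613 CPM. In KO replicates 1 to 3 it had 7729, 6231 and 11300 counts, or 369, 296 and 538 CPM. KO replicates 1 and 2 lay below every WT library, and KO replicate 3 lay inside the WT range, so the genotypes overlapped. The means were 563 ± 54.2 CPM in WT and 401 ± 124 CPM in KO (SD, n = 3 each), and the log2 fold change of -0.49 (SE 0.214) did not pass the threshold of 0.01 (adjusted p = 0.12, edgeR's quasi-likelihood test). Without KO replicate 3 it was -0.76 (SE 0.101, adjusted p = 0.000195, the same edgeR test), and without KO replicate 2 it was -0.31 (adjusted p = 0.246, edgeR).

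Sox2 (ENSMUSG00000074637, GRCm38 chromosome 3, 34650405 to 34652461, plus strand) followed the same order of libraries with smaller differences. WT replicates 1 to 3 had 7354, 8254 and 8251 counts, or 350, 392 and 392 CPM. KO replicates 1 to 3 had 6549, 6062 and 8175 counts, or 313, 288 and 389 CPM. Again KO replicates 1 and 2 were the lowest of the 6 libraries and KO replicate 3 lay within the WT values. The means were 378 ± 24.3 CPM and 330 ± 52.9 CPM (SD, n = 3 each), and the log2 fold change of -0.19 (SE 0.124) did not pass (adjusted p = 0.259, edgeR's quasi-likelihood test). Without KO replicate 3 it was -0.33 (SE 0.0667, adjusted p = 0.0025, edgeR), and without KO replicate 2 it was -0.10 (adjusted p = 0.57, edgeR).

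**Figure D1:**
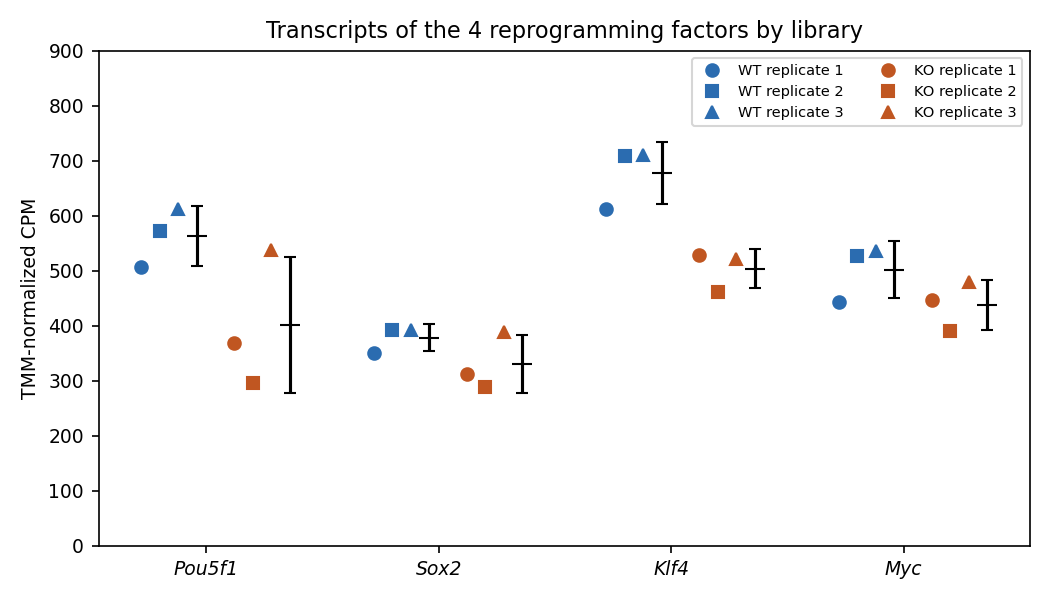
TMM-normalized CPM (vertical axis) of the 4 reprogramming factor genes, with 1 point per library (blue WT, orange KO, marker shape by replicate number) and bars for the mean ± SD of 3 libraries. Pou5f1 and Sox2 of KO replicates 1 and 2 lie below all WT points, and those of KO replicate 3 (538 and 389 CPM) lie among them.

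Divided by gene length, the level of Pou5f1 was 414 CPM per kb in WT and 294 in KO, and that of Sox2 was 184 and 160 CPM per kb. Among 16982 genes ordered by this level, Pou5f1 ranked 116 to 137 in the WT libraries and 149 to 230 in the KO libraries, and Sox2 ranked 244 to 275 and 283 to 376. The lengths are those deposited for the mouse genes, and a viral transcript of another length would shift these levels. Within each library the ratio of Pou5f1 to Sox2 CPM, which does not depend on the scaling between libraries, was 1.45, 1.46 and 1.57 in WT replicates 1 to 3. It was 1.18, 1.03 and 1.38 in KO replicates 1 to 3, so that every KO ratio lay below every WT ratio, KO replicate 3 included. The mean ratio was 1.49 ± 0.0658 in WT and 1.20 ± 0.178 in KO (SD, n = 3 each), with an exact two-sided permutation p = 0.1, the smallest that 3 against 3 libraries can give, and 0.2 after Benjamini-Hochberg adjustment over the 6 ratios among the 4 factors, which were formed after the values had been seen.

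Klf4 and Myc, the other factor genes of the mixture, had means of 678 and 502 CPM in WT and 504 and 438 CPM in KO, with log2 fold changes of -0.43 (adjusted p = 0.0176) and -0.20 (adjusted p = 0.215, edgeR's quasi-likelihood test for both). Klf4 was the factor gene of which all 3 KO libraries lay below all WT libraries, and it was called lower without KO replicate 3 (log2 fold change -0.45, adjusted p = 0.00127, edgeR). Klf4 and Myc are also expressed by fibroblasts themselves, so their counts too can be of either origin.

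The endogenous genes were at the edge of detection in both genotypes. The 8 genes together had 76, 112 and 72 counts in WT replicates 1 to 3 and 58, 32 and 23 counts in KO replicates 1 to 3. In CPM these sums were 3.61, 5.32 and 3.42 in WT and 2.77, 1.52 and 1.10 in KO, so the 3 KO sums lay below the 3 WT sums and their mean was 43.6% of that of WT. Nanog and Fbxo15 made up most of these counts, and they were the endogenous genes of the set that passed the low-count filter, beside Pou5f1 and Sox2. None of the 4 tested genes of the set was called by the edgeR quasi-likelihood test at an adjusted p under 0.01, and 1 of them (Fbxo15) had an unadjusted p under 0.05 (DESeq2 and edgeR's exact test also called 0 of 4). Of all 13386 tested genes, 9.88% were called in either direction, 4.89% were called lower in KO, and 45.6% had an unadjusted p under 0.05.

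**Figure D2:**
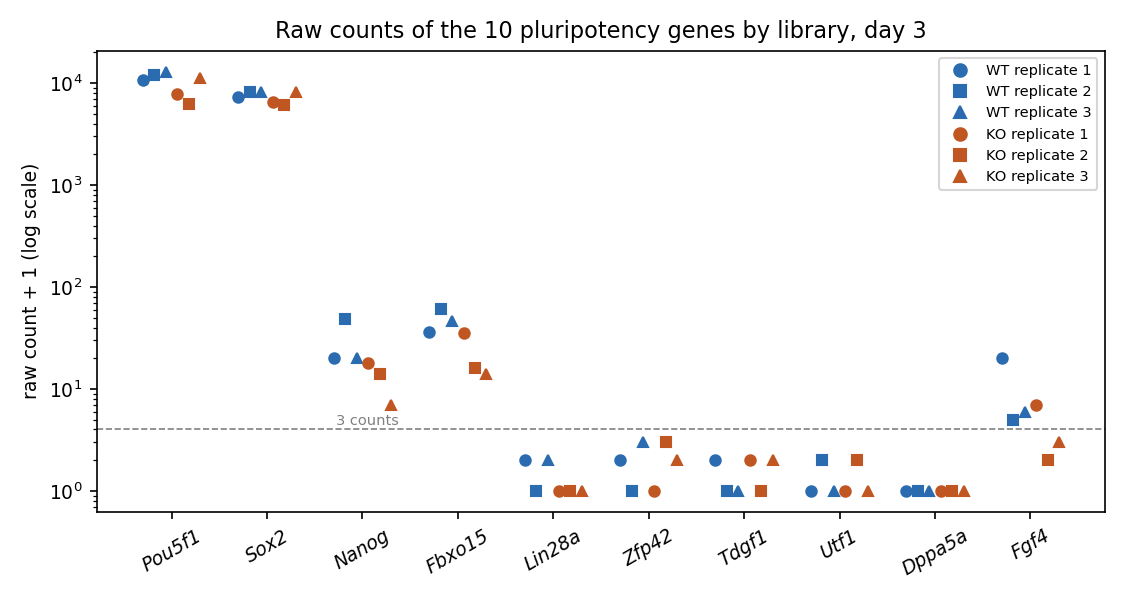
Raw count + 1 on a log axis for the 10 genes in each library (blue WT, orange KO, marker shape by replicate number), with a dashed line at 3 counts. Pou5f1 and Sox2 lie between 6062 and 12920 counts, Nanog and Fbxo15 between 6 and 60, Fgf4 between 1 and 19, and the other 5 genes at 0 to 2.

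Nanog (ENSMUSG00000012396, GRCm38 chromosome 6, 122707489 to 122714633, plus strand) encodes the homeobox factor that stabilizes the pluripotent state and is a direct target of the OCT4 and SOX2 pair. It had 19, 47 and 19 counts in WT replicates 1 to 3 and 17, 13 and 6 in KO replicates 1 to 3, that is 0.903, 2.23 and 0.902 CPM against 0.811, 0.617 and 0.286 CPM. All KO libraries lay below all WT libraries, by a narrow margin between KO replicate 1 and the lower pair of WT libraries. The log2 fold change was -1.23 (SE 0.543, adjusted p = 0.125, edgeR's quasi-likelihood test). It was -0.66 (adjusted p = 0.397, edgeR) without WT replicate 2, the single library with more than 19 counts, -0.91 without KO replicate 3 and -1.56 without KO replicate 1. Over all 13386 tested genes, the 3 KO libraries lay below the 3 WT libraries in 28.2%, and the groups did not overlap in 1 direction or the other in 54.8%, so a gap between the groups is a common pattern in this comparison.

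Fbxo15 (ENSMUSG00000034391, GRCm38 chromosome 18, 84934782 to 84981473, plus strand) encodes an F-box protein and is an OCT4 and SOX2 target long used as an early reporter of reprogramming, although it is dispensable for pluripotency itself. It had 35, 60 and 45 counts in WT replicates 1 to 3 and 34, 15 and 13 in KO replicates 1 to 3. In CPM these were 1.66, 2.85 and 2.14 against 1.62, 0.712 and 0.619, with KO replicate 1 next to WT replicate 1 and the other KO libraries well below. The log2 fold change was -1.17 (SE 0.439, unadjusted p = 0.0337, adjusted p = 0.0828, edgeR's quasi-likelihood test). It was -1.72 (adjusted p = 0.0268, edgeR) without KO replicate 1 and -0.92 (adjusted p = 0.0854, edgeR) without KO replicate 3. Of the endogenous genes of the set, Fbxo15 was the one in the FPKM table, with 1.33, 2.26 and 1.68 FPKM in WT and 1.33, 0.645 and 0.461 FPKM in KO, where WT replicate 1 and KO replicate 1 had the same printed value.

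In Nanog and Fbxo15 the libraries stood in another order than in Pou5f1 and Sox2. KO replicate 3 had 0.955 times the WT mean CPM of Pou5f1 and 1.03 times that of Sox2, but 0.212 times that of Nanog and 0.279 times that of Fbxo15. KO replicate 1 had 0.655 and 0.828 times the WT mean of Pou5f1 and Sox2, and 0.603 and 0.732 times that of Nanog and Fbxo15. The KO library with the highest Pou5f1 and Sox2 values thus had the lowest counts of both endogenous genes, which is a statement on 1 library and on 6 counts of Nanog and 13 of Fbxo15.

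**Figure D3:**
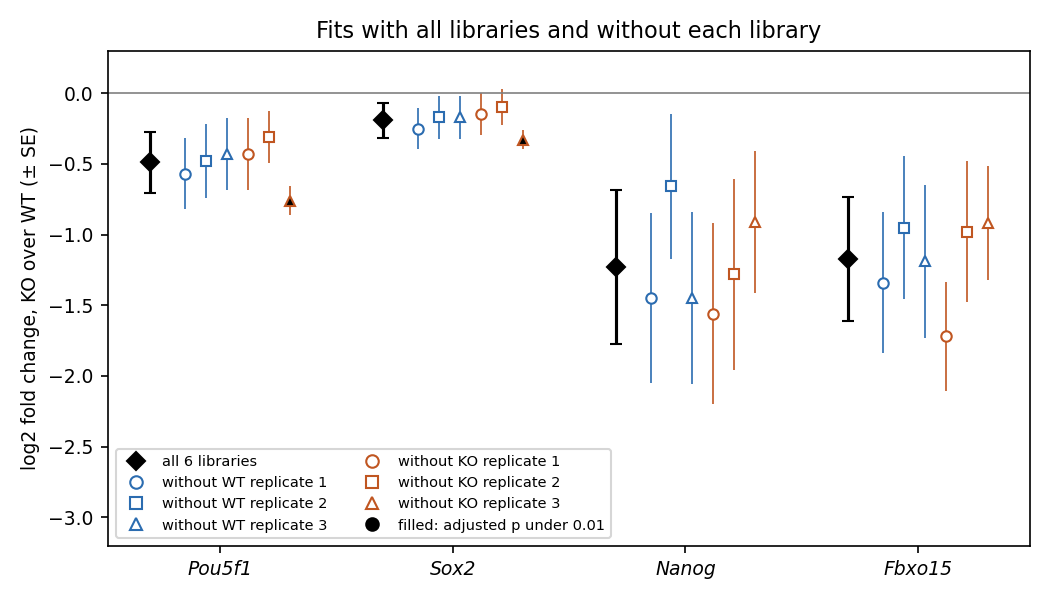
Log2 fold change of KO over WT with its SE (vertical axis) for the 4 tested genes, from all 6 libraries (black diamonds) and without each library in turn (colored by the genotype of the library left out, filled black where the adjusted p was under 0.01). Every value is below 0, and the filled points are Pou5f1 at -0.76 and Sox2 at -0.33, both without KO replicate 3.

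Fgf4 (GRCm38 chromosome 7, 144847367 to 144865243, plus strand), a growth factor whose enhancer is a classical joint target of OCT4 and SOX2, had 19, 4 and 5 counts in WT replicates 1 to 3 and 6, 1 and 2 in KO replicates 1 to 3. The genotypes overlapped, WT replicate 1 held 19 of the 37 counts, and an exact two-sided permutation test of the CPM gave p = 0.3. Lin28a, an RNA-binding protein that blocks the maturation of let-7, had 1, 0 and 1 counts in WT and 0 in every KO library. Zfp42, the zinc finger gene also known as Rex1, had 1, 0 and 2 counts in WT and 0, 2 and 1 in KO. Tdgf1, the NODAL co-receptor, had 1, 0 and 0 counts in WT and 1, 0 and 1 in KO, and Utf1, a chromatin-bound factor of undifferentiated cells, had 0, 1 and 0 in both genotypes. Lin28a, Zfp42, Tdgf1 and Utf1 stayed at or below the floor of 3 counts in every library, so no difference between genotypes was detectable at this depth, and no fold change is given. With Dppa5a, 6 of the 10 genes were thus left out of the test by the low-count filter or the lack of a row.

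Reads can be shared or misplaced between similar loci. GENCODE M21 names 2 pseudogenes of Nanog, 1 of Zfp42 and 2 of Tdgf1, and none of them had a row in the count table. Exons of Pou5f1 overlap those of the antisense gene Gm19553, and exons of Lin28a those of Gm13061 on the other strand. Neither had a row, and whether the counting used the strand is not given in the sources used here.

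Further genes of the pluripotency network were taken from a list of 23, of which 19 were analysed, 9 passed the low-count filter and 0 were called by edgeR's quasi-likelihood test. Of the 9, 5 had negative and 4 positive log2 fold changes. The median of the 9 was -0.27, against -0.000324 over all 13386 genes. Tet1, which oxidizes 5-methylcytosine, had a mean of 22.9 CPM in WT and 9.33 in KO (log2 fold change -1.29, adjusted p = 0.0428). Tbx3, a T-box factor that sustains self-renewal, had 17.8 CPM in WT and 24.0 in KO (0.43, adjusted p = 0.0399). The Krüppel-like factors Klf2 and Klf5 had log2 fold changes of -0.51 (adjusted p = 0.054) and -0.27 (adjusted p = 0.193). L1td1, an RNA-binding protein of embryonic stem cells named after its values were seen, had 11.2 CPM in WT and 4.44 in KO (-1.33, adjusted p = 0.0947). Tfcp2l1, Zfp296 and Tdh, named in the same way, had positive log2 fold changes of 0.64, 0.54 and 1.03, with overlapping libraries. Esrrb, Sall4, Nr5a2, Dppa2 and Dppa4, genes that mark established pluripotent cells and were also named after their values were seen, had group means of at most 0.0634 CPM, under the floor of 3 counts. Without KO replicate 3, when 33.2% of 13529 tested genes were called, 3 of these 9 genes were called lower, namely Tet1 (-0.93, adjusted p = 0.000161), L1td1 (-0.88, adjusted p = 0.000656) and Klf2 (-0.63, adjusted p = 0.00633).

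Pou5f1 and Sox2 were set beside their gene families, because related factors can occupy the same DNA letters. Of 14 further genes of the POU list, 8 were tested, and 1 was called lower and 0 higher by edgeR's quasi-likelihood test, with a median log2 fold change of -0.50. The gene called was Pou6f1, with 56.3, 52.2 and 52.6 CPM in WT and 32.7, 38.5 and 29.3 CPM in KO (log2 fold change -0.68, SE 0.112, adjusted p = 0.00772). All KO libraries lay below the WT libraries there. Pou2f1, the gene of the broadly expressed octamer factor OCT1, had 46.0 CPM in WT and 36.8 in KO, also without overlap, but did not pass (-0.32, adjusted p = 0.0856). On the scale of CPM per kb, Pou6f1 stood at 9.42 and Pou2f1 at 3.52 in WT, against 414 for Pou5f1. The neural factors Pou3f3 and Pou3f4 and the epithelial factor Pou2f3 had means below 1 CPM per kb in both genotypes, with adjusted p-values of 0.105 to 0.95 (edgeR's quasi-likelihood test). Pou3f4 reached 1.04 CPM per kb in KO replicate 2.

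Of 18 further SOX genes, 16 were analysed and 11 were tested, of which 3 were called lower and 0 higher, and the median log2 fold change was -0.86. The 3 were the SoxC genes Sox11 and Sox12, which are known from progenitor cells, and the SoxD gene Sox13. Sox11 had 81.1, 102 and 91.8 CPM in WT and 58.8, 43.7 and 48.2 in KO (log2 fold change -0.87, SE 0.136, adjusted p = 0.00712, edgeR's quasi-likelihood test). Sox12 had 62.2, 57.3 and 56.9 CPM in WT and 35.2, 34.3 and 27.6 in KO (-0.86, SE 0.11, adjusted p = 0.00433). Sox13 had 40.8, 50.2 and 48.6 CPM in WT and 29.3, 24.9 and 19.5 in KO (-0.92, SE 0.162, adjusted p = 0.00921). In these genes KO replicate 3 was with the other KO libraries, unlike in Pou5f1 and Sox2. Sox4, the remaining SoxC gene and the most abundant SOX gene after Sox2, had 260 CPM in WT and 295 in KO with overlapping libraries (0.18, adjusted p = 0.153). Per length Sox4 stood at 54.2 CPM per kb in WT, Sox12 at 13.2 and Sox2 at 184. Sox21, Sox9, Sox10, Sox5 and Sox6 were not called, with log2 fold changes from -1.03 (Sox21) to 0.87 (Sox10). These 5 were detected at over 3 counts in every library, a limit that leaves out genes with few counts in KO. Of the genes under it, Sox8, a SoxE gene, had 3.02 CPM in WT and 0.508 in KO (-2.56, adjusted p = 0.0193), and Sox18, an endothelial factor gene, had 1.42 CPM in WT and was at 0 counts in 2 KO libraries (adjusted p = 0.0214), both without overlap and both named after their values were seen. Without KO replicate 3, 7 SOX genes were called lower (Sox8, Sox9, Sox11, Sox12, Sox13, Sox18 and Sox21) and 0 higher. In the POU list 2 were then called lower, Pou6f1 (-0.59, adjusted p = 0.000253) and Pou3f1 (-4.77, adjusted p = 0.00107). Pou3f1, named after its values were seen, had 0 and 1 counts in KO replicates 1 and 2. The 1 POU gene called higher was Pou3f4 (1.02, adjusted p = 0.00848, edgeR for all). Without any 1 of the other 5 libraries, 0 genes of either family were called, while the whole table then gave 1 to 149 called genes. With all 6 libraries, 4.89% of all tested genes were called lower, and in 28.2% all KO libraries lay below all WT libraries. Without KO replicate 3, 33.2% were called in either direction.

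**Figure D4:**
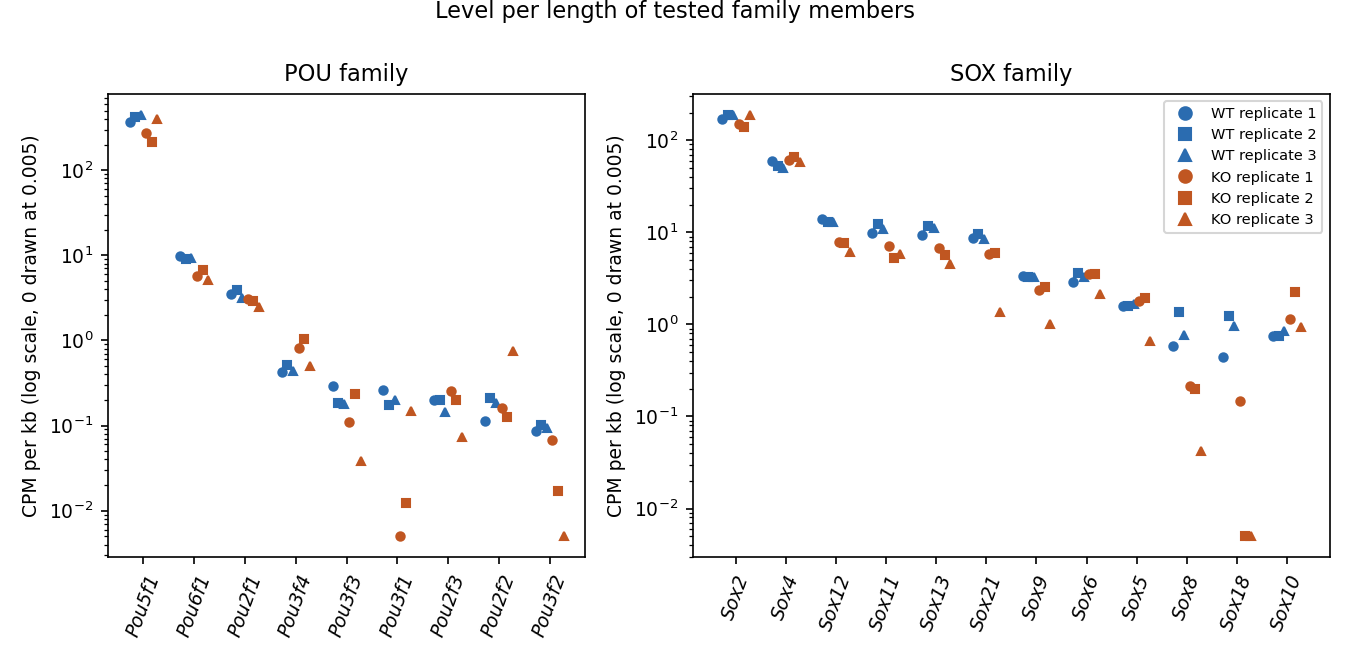
CPM per kb on a log axis for the tested genes of the POU family (left) and the SOX family (right), ordered by their WT mean, with 1 point per library (blue WT, orange KO, marker shape by replicate number; values of 0 are drawn at 0.005). Pou5f1 (414 in WT) and Sox2 (184 in WT) stand above every relative, and the KO points of Sox11, Sox12, Sox13 and Pou6f1 lie below their WT points.

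The LIF pathway, which keeps mouse pluripotent cells undifferentiated through STAT3, had 8 tested genes, of which 0 were called in either direction by edgeR's quasi-likelihood test (median log2 fold change 0.21). Il6st, the shared receptor subunit, had 560 CPM in WT and 586 in KO, Stat3 had 247 and 274, and Jak1 had 234 and 281 CPM (0.26, adjusted p = 0.0193). Socs3, a target and inhibitor of the pathway, had a log2 fold change of 0.79 (adjusted p = 0.0753). The NODAL pathway, to which Tdgf1 belongs, had 7 tested genes with 0 called (median -0.15). Its mediators Smad2, Smad3 and Smad4 had log2 fold changes of 0.13, -0.15 and -0.18, and the receptor gene Acvr2a had -0.081. Lefty1, a secreted NODAL inhibitor and pluripotency marker named after its values were seen, had 3.83 CPM in WT and 1.54 in KO (-1.31, adjusted p = 0.0386). Nodal itself had a mean of at most 0.0318 CPM in either genotype. For the 2 lists together, leaving out KO replicate 3 gave 2 genes called lower, Lifr and Acvr2b. It gave 3 called higher, Lif (0.82, adjusted p = 0.00107, edgeR), Jak1 and Socs3.

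Of the receptors and relay proteins that carry an FGF4 signal, 8 genes were tested, and 0 were called lower and 2 higher. These were the adaptor gene Frs2, with 96.2 CPM in WT and 147 in KO (log2 fold change 0.61, adjusted p = 0.00464), and the phosphatase gene Ptpn11, with 218 and 311 CPM (0.51, adjusted p = 0.0084, edgeR's quasi-likelihood test for both). Fgfr1 had 293 CPM in WT and 260 in KO (-0.17, adjusted p = 0.127). Among 12 tested genes of LIN28 and let-7 biology, 0 were called lower and 1 higher. That gene was Hmga2, a let-7 target for an architectural chromatin protein, with 87.6 CPM in WT and 168 in KO (0.94, adjusted p = 0.00555). Igf2bp2, Xpo5 and Zcchc6 had log2 fold changes of -0.0918, -0.00815 and 0.0822. Of the 12 genes, 8 had negative and 4 positive log2 fold changes. Among the negative ones were Trim71 (-1.24) and Igf2bp1 (-0.46), named after their values were seen and not called. Lin28b, the close relative of Lin28a, had 0.665 CPM in WT and 0.842 in KO, still under 1 CPM. Without KO replicate 3, 3 genes of the FGF4 list were called lower, Fgfr1 (-0.22, adjusted p = 0.00627) among them, and 4 higher, Frs2 (0.57) and Ptpn11 (0.43) among them. In the LIN28 list 2 genes were then called lower, Igf2bp1 (-0.43, adjusted p = 0.00154) and Dis3l2 (-0.61, adjusted p = 0.00307), both named after their values were seen, and 1 higher, Hmga2 (0.83). Without any 1 of the other 5 libraries, 0 genes of these 2 lists were called.

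Retroviral transcripts are subject to silencing, so genes of that machinery were counted too. Of 11 tested genes, 1 was called lower and 0 higher, and 10 had a negative log2 fold change (median -0.42). Chaf1b, a subunit of the chromatin assembly factor that loads histones at replication forks, had 23.9 CPM in WT and 7.46 in KO (log2 fold change -1.68, SE 0.225, adjusted p = 0.00487, edgeR's quasi-likelihood test). Trim28, the corepressor that zinc finger proteins bring to proviruses, had 413 CPM in WT and 288 in KO (-0.52, adjusted p = 0.0343). The DNA methyltransferase gene Dnmt3a had -0.60 (adjusted p = 0.0477), Atrx -0.20 and Sumo2 -0.091. Without KO replicate 3, 5 of the 11 were called lower, Chaf1b (-1.47) and Trim28 (-0.37) among them. Without KO replicate 1, 1 gene was called, and without any 1 of the other 4 libraries 0 were.

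Lists of proliferation genes and of markers of other cells gave a further view of how the libraries differed where Pou5f1 and Sox2 did. The summed CPM of 10 proliferation genes was 1640 to 1690 in WT and 733, 645 and 270 in KO replicates 1 to 3. All 10 had negative log2 fold changes, and 2 of them, Pcna and Mcm7, were called lower (10 of 10 without KO replicate 3, and 0 without any 1 of the other 5 libraries). KO replicate 3 was thus the lowest library for proliferation genes, at 16.2% of the WT mean, while its Pou5f1 stood at 95.5% and its Sox2 at 103% of the WT mean. The 14 fibroblast markers, all detected in every library at more than 3 counts, summed to 28300 to 30700 CPM in WT and to 27800, 34500 and 18700 CPM in KO replicates 1 to 3. Most of each sum came from Col1a1, Col1a2 and Col3a1, in which the genotypes overlapped. Of the 14 genes, 7 had negative and 7 positive log2 fold changes (median -0.1). Vim was higher in every KO library (2920 CPM in WT and 3570 in KO, 0.29, adjusted p = 0.0577, edgeR's quasi-likelihood test) but was not called. Of the 14, 2 genes, Thy1 and Fap, were called lower (4 without KO replicate 3, 1 without KO replicate 1 and 0 without any 1 of the other 4 libraries).

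The 8 macrophage markers summed to 47.6, 95.0 and 77.4 CPM in WT and to 80.7, 51.2 and 253 CPM in KO, with KO replicate 3 highest, none at 0 and 0 called. The 5 tested epithelial markers of 7 analysed summed with the others to 54.9 to 58.6 CPM in WT and to 76.8, 53.6 and 21.8 in KO, with 0 called. The keratin genes in this sum differed in direction, though none passed the test. Krt19 had 12.7, 13.2 and 15.4 CPM in WT and 43.2, 29.7 and 18.4 in KO (log2 fold change 1.14, adjusted p = 0.0274), whereas Krt8 had 30.3, 28.4 and 29.5 CPM in WT and 18.1, 12.4 and 0.714 in KO (-1.50, adjusted p = 0.189, edgeR for both). Krt18 and Epcam (the latter named after its values were seen) also had all KO libraries below all WT libraries. The libraries of Cdh1 overlapped, with means of 9.94 CPM in WT and 8.21 in KO (-0.28, adjusted p = 0.653, edgeR). Its log2 fold change was 0.2 without KO replicate 3 (adjusted p = 0.309, edgeR). Krt19 was called higher (1.41, adjusted p = 4.78e-05) and Krt8 lower (-0.95, adjusted p = 0.000347, edgeR) without KO replicate 3. Of 7 endothelial markers 2 were tested, with sums of 48.8 to 59.0 CPM in WT and 32.5 to 67.7 in KO, nearly all of it Tek, whereas the defining markers Pecam1 and Cdh5 stayed below 1 CPM. Pecam1 had 2, 1 and 0 counts in WT and 11, 10 and 11 in KO, without overlap but under the low-count filter, and the libraries of Cdh5 overlapped. The 6 germ cell markers analysed, which share parts of the pluripotency network, summed to 1.66 to 1.95 CPM in WT and 1.05 to 1.48 in KO. Neural and Schwann cells are of interest here because some express Sox2. Of 9 markers analysed 7 were tested, and their sum was 214, 234 and 230 CPM in WT and 391, 403 and 313 in KO, mostly from Nes, an intermediate filament gene of progenitors, which was called higher (log2 fold change 0.77, adjusted p = 0.00488, edgeR's quasi-likelihood test; without KO replicate 3 it was 0.86 and 2 genes of the list were called, Nes and Ngfr, and without any 1 of the other 5 libraries 0 were). Of the 7 tested markers, 4 had positive and 3 negative log2 fold changes. The negative ones were Gfap (-1.38), Fabp7 (-0.32) and Erbb3 (-0.26), named after their values were seen and not called. Pax6 was below 1 CPM in every library. The part of these cell types and of proliferation in the values of Pou5f1, Sox2, Nanog and Fbxo15 was not tested.

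**Figure D5:**
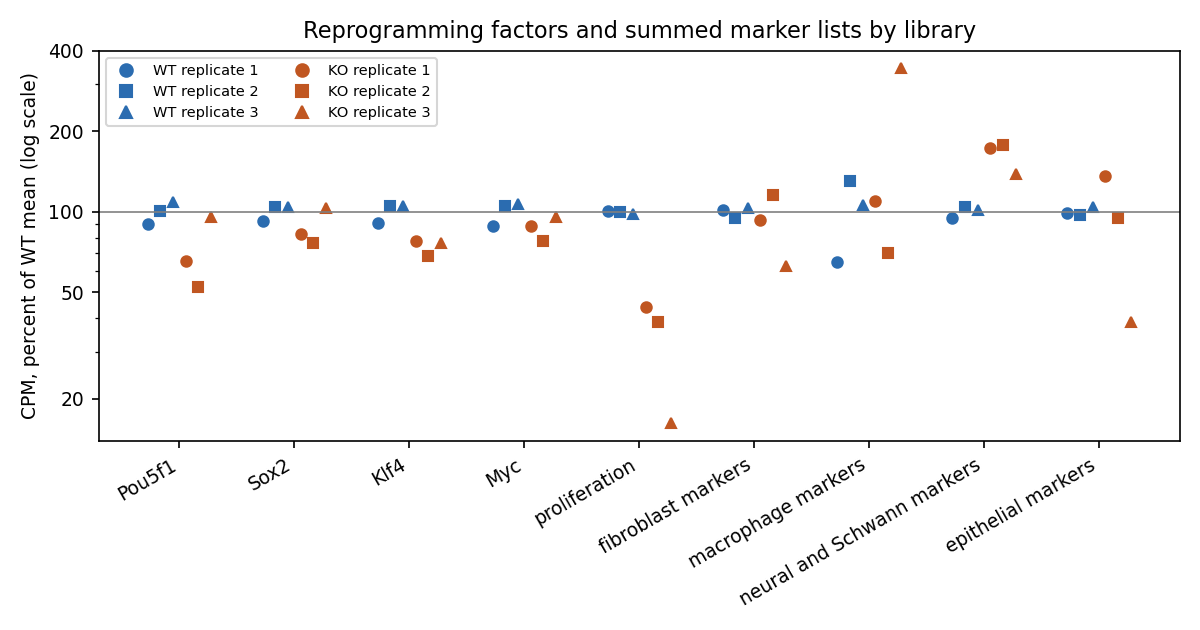
CPM as a percent of the WT mean on a log axis, for the 4 factor genes and the summed marker lists, with 1 point per library (blue WT, orange KO, marker shape by replicate number). KO replicate 3 lies at 95.5% for Pou5f1 and 103% for Sox2, but at 16.2% for proliferation genes and 344% for macrophage markers.

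The genes on each side of the 10 loci were counted to see whether neighbours moved. Of 40 neighbouring genes, the 2 nearest protein-coding genes on each side that had a row, 24 were tested, 3 were called lower and 1 higher by edgeR's quasi-likelihood test, with a median log2 fold change of 0.0785. Tcf19, a cell-cycle gene next to Pou5f1, had 23.2, 23.2 and 21.7 CPM in WT and a log2 fold change of -1.22 (adjusted p = 0.00337). Timm21 is a mitochondrial import gene whose lower coordinate lies 11409 bases above that of Fbxo15, inside the span of Fbxo15. It had -0.65 (adjusted p = 0.00772), and Hmgn2, a nucleosome-binding protein gene beside Lin28a, had -1.45 (adjusted p = 0.00875). Asah1, the acid ceramidase gene and the distant neighbour of Zfp42 at 1954866 bases between the lower coordinates of both genes, had 0.79 (adjusted p = 0.00349). Gdf3, a ligand gene of the pluripotency network 102086 bases from Nanog by the same measure, had 0.76 CPM in WT and 0.318 in KO (-1.24, adjusted p = 0.116), and Slc2a3, a glucose transporter gene on the other side, had -0.59 (adjusted p = 0.268). Without any 1 of the 3 WT libraries or KO replicate 1, 0 neighbours were called. Without KO replicate 2 there was 1, called lower, and without KO replicate 3 there were 7, of which 5 were lower. Over all tested genes, 9.88% were called with all 6 libraries and 33.2% without KO replicate 3.

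The genes whose log2(CPM + 1) followed Pou5f1 most closely over the 6 libraries, among 9519 genes with a mean above 10 CPM, were D8Ertd738e (Pearson r = 0.996), Atf1 (0.996), Rpl36al (0.993), Mettl26 (0.991) and Pxk (0.991). Among the 5 closest to Sox2 were St3gal1 (0.987), Rab29 (0.981), Klf16 (0.979) and Rpl36al (0.979), and the value between Pou5f1 and Sox2 themselves was 0.978. These values describe 6 libraries that share 2 genotypes and 1 deviating library, and 49 genes for Pou5f1 and 45 for Sox2 were above 0.95. St3gal1, a sialyltransferase gene, shows the shared pattern, with 34.8, 40.1 and 39.4 CPM in WT and 27.0, 25.9 and 39.2 CPM in KO, so that KO replicate 3 lay in the WT range there too.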

How the data were processed

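RNA-seq of 3 WT and 3 KO libraries at day 3 was analysed, grouped by the sample titles. The authors prepared stranded poly(A) libraries and, per the labels, aligned reads to GRCm38/mm10 with HISAT2 2.1.0. The deposited counts are raw whole numbers per gene, and the counting program and its strand setting are not given in the sources used here. The deposited gene lengths, in bases, gave CPM per kb. The authors computed the FPKM values with Cufflinks 2.1.1 for 12633 genes. The columns of their own fold changes and p-values were not used.

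Counts were analysed with edgeR 4.0.16 in R 4.3.3: TMM factors, filterByExpr at its defaults (13386 genes), a quasi-likelihood test without covariates, and Benjamini-Hochberg adjustment over all genes tested, with a gene called at an adjusted p under 0.01. The SE was taken as |log2 fold change| over the root of the F statistic. Depth was 20545442 to 21746898 counts per library, and the floor of 3 counts covers counting error only. FPKM values were compared as log2(FPKM + 1) with limma 3.58.1. Alternatives were RLE size factors, library totals, other filters, DESeq2 1.42.0, edgeR's exact test, the replicate number as a block, an adjusted p of 0.05, the study's thresholds and each library left out. Scripts were tested on simulated data. Positions come from GENCODE M21, to which 16486 genes were matched, and promoters from RefSeq.

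The members and lists were chosen with earlier results of these data known. The text names every member, Rnf20, called genes of each list and up to 4 of its most abundant tested genes, POU and SOX genes over 3 counts in every library, called neighbours, and the 5 genes most like Pou5f1 and Sox2. Some results under this rule are not reported here.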

Additional observations from a re-analysis of the deposited data

How the results depend on the processing

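All 4 tested genes kept a negative log2 fold change under every alternative that gave a value, and were called in none of them except Pou5f1 and Sox2 without KO replicate 3. With 1 library left out, Pou5f1 ranged from -0.76 to -0.31, Sox2 from -0.33 to -0.10, Nanog from -1.56 to -0.66 and Fbxo15 from -1.72 to -0.92. Fbxo15 was at -0.62 on the log2(FPKM + 1) scale. Nanog has no value with the filter of CPM over 1 or from FPKM. Over all genes, 655 were called lower and 667 higher. DESeq2 called 1755 and 1842, edgeR's exact test 1485 and 1420, an adjusted p under 0.05 gave 2218 and 2195, and the study's thresholds gave 279 and 201. With 1 library left out the counts ranged from 1 to 2263 lower and from 0 to 2222 higher, the highest being without KO replicate 3 and the lowest without a WT replicate. Of the list genes, 9 were called lower and 4 higher, against 30 and 10 by DESeq2, 26 lower by the exact test, 32 and 10 at 0.05, and 0 to 40 lower and 0 to 12 higher with 1 library left out. Of the neighbours, 3 were called lower and 1 higher, against 6 lower by DESeq2, by the exact test and at 0.05 (2 higher), and 0 to 5 lower and 0 to 2 higher with 1 library left out. The cause of these shifts was not tested. Libraries of the same replicate number did not deviate together (correlations of -0.0656, 0.0366 and 0.0109). These values cannot show whether the numbers pair the samples, because each deviation is from a mean of 3 libraries and KO replicate 3 stands apart. With the replicate number as a block, edgeR called 0 genes lower and 0 higher, 0 list genes and 0 neighbours, with 5552 genes at an unadjusted p under 0.05 and a smallest adjusted p of 0.0168. Under that block Pou5f1 was at -0.53, Sox2 at -0.20, Nanog at -1.19 and Fbxo15 at -1.24. Taking each list, direction and alternative as 1 comparison, the count stayed within 1.5 times in 349 comparisons, those with 0 called both ways included, and moved further in 99. With 3 libraries per genotype and 1 KO library that stands apart, differences the size of that of Sox2 lie within the spread, and counts of at most 47 (Nanog) and 60 (Fbxo15) per library leave wide errors for these genes.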
